A study of Mus musculus with 564 samples.

Results

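The suppressor of cytokine signalling (SOCS) genes were followed through the histone acetylation of their loci. The family has 8 members in the mouse, Socs1, Socs2, Socs3, Socs4, Socs5, Socs6, Socs7 and Cish, and all cis-regulatory elements (CREs) of the deposited table whose centre lay within 25 kb of an mm10 RefSeq transcription start of a member were taken. This rule used positions only and no measured value. It gave 31 of the 59190 CREs: 9 at Socs3, 8 at Cish, 3 each at Socs1, Socs4 and Socs6, 2 each at Socs5 and Socs7 and 1 at Socs2. A CRE is named here by its gene and by the distance in kb of its centre from the nearest start of that gene, with a minus sign for upstream, and the CRE nearest to a start is called the promoter CRE.

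SOCS proteins carry an SH2 domain, which binds phosphorylated tyrosines, and a SOCS box, which recruits a ubiquitin ligase. Cytokine receptors activate JAK kinases, which phosphorylate STAT transcription factors, and STATs in turn switch on several SOCS genes, whose products damp the same pathway. SOCS1 and SOCS3 also block JAK kinases directly through a short inhibitory region. In macrophages, SOCS1 is best known for limiting interferon signalling and SOCS3 for limiting IL-6 family signalling.

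The cells were bone marrow-derived macrophages (BMDMs) grown from wild type C57/BL6 male mice and exposed for 1 h to the vehicle DMSO or to a clinical kinase inhibitor (CKI), of which there were 58. They were then left without stimulus (UT) or given 10 ng/mL of LPS, a bacterial product sensed by TLR4, or of the cytokine IL-4, and collected 30 min, 1 h, 2 h or 4 h later. H3K27ac, the acetylation of lysine 27 on histone H3 that marks working enhancers and promoters, was read by ChIP-seq in 564 libraries, 18 of DMSO cells (2 for each of the 9 groups) and 546 of CKI-treated cells, mostly 1 for each CKI, stimulus and time. The UT samples are named as time 0 in their titles and as 4 h without stimulus in their treatment labels, and they were the start of both courses. Nothing states that the DMSO replicates came from separate cultures, so their p-values measure the spread between these samples, which may be technical. Each CKI was used at its own concentration.

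Values are normalized read counts per CRE, scaled by the authors and rounded, and they do not give read depth. Scaled totals ran from 5923684 to 6873668 in DMSO libraries and from 4066894 to 12391409 in CKI libraries. The libraries differed more in contrast, here the ratio of 2 medians, that of the top 10% of CREs over that of the bottom 10%: it ran from 53 to 133.7 (median 75.1) in DMSO libraries and from 3.34 to 67.17 (median 17.56) in CKI libraries. The DMSO libraries therefore stood apart from the CKI libraries, and every comparison with DMSO is given beside one among CKIs. Of the macrophage markers with a CRE near their start, Spi1 held 1573 to 2625 in the DMSO libraries, Itgam 124 to 666, Mertk 33 to 282 and Cd14 276 to 1066. The neutrophil gene S100a8 held 3 to 35 and the fibroblast gene Col1a1 1 to 18, and no other marker on the lists had a CRE within 1 kb. Those without one include the macrophage genes Csf1r, Adgre1 and Cd68, so the lack of a CRE does not tell cell types apart here. Fewer cells carrying the mark and less of the mark per cell cannot be told apart in such bulk samples.

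Sequences are shown for some of the SOCS promoters and CREs that held STAT or interferon response letters. Other CREs with such letters are not shown. Among them is the Socs5 promoter CRE, whose middle held a STAT site with 4 bases between and which was not called after IL-4. The middles of Socs1+3.7kb, Cish+6.6kb and Socs2-0.6kb, all among the CREs that rose after IL-4, held none of the motifs searched. The sequences shown are from mm10 on the strand of the gene, with the letters that match in capitals, and positions are counted from the annotated start as 0. The motifs searched on both strands were TTCNNNGAA, the spacing most STATs bind, TTC and GAA with 4 bases between them, the spacing known for STAT6, and a pair of GAAA with 2 bases between, part of the interferon response element. The Socs1 promoter (chr16:10785537-10785786, minus strand, bases -250 to -1, RefSeq) held 2 overlapping GAAA pairs, at -83 to -74 and -77 to -68.
Socs1 promoter: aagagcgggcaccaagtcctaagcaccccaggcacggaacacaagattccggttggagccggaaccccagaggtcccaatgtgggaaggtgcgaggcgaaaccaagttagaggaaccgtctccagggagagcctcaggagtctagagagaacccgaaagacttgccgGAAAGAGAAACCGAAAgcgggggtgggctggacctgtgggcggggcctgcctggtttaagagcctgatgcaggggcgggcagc
The middle of the Socs1 promoter CRE (chr16:10786006-10786305, minus strand), which lies further upstream, held 3 of the sites with 4 bases between.
Socs1-0.6kb centre: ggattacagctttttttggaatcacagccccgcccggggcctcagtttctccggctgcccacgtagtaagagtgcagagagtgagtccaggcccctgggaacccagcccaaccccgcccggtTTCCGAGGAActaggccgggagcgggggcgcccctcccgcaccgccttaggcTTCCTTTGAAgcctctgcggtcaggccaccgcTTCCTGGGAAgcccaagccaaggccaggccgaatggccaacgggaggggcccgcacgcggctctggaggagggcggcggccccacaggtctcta
The Socs3 promoter held 1 TTCNNNGAA, at -154 to -146 (chr11:117969502-117969531, minus strand), and the Cish start held 2, at 0 to 8 and 11 to 19 (chr9:107296654-107296683, plus strand). They are shown with the bases around them.
Socs3 promoter site: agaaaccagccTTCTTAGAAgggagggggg
Cish start sites: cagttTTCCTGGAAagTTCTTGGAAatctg
The middle of the Cish CRE 10.6 kb downstream, the Cish element with the largest difference after IL-4 on the log2(value + 5) scale (chr9:107307060-107307359, plus strand), held 1 site with 4 bases between, beside a long run of GT repeats.
Cish+10.6kb centre: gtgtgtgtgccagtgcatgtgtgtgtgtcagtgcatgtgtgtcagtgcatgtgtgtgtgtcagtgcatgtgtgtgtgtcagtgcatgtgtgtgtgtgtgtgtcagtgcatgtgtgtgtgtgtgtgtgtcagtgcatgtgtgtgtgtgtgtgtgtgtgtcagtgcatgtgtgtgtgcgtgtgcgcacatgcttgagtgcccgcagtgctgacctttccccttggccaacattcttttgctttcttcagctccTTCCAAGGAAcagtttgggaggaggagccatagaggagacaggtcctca
RefSeq promoter sequences (mm10) were matched for Socs1, Socs3, Socs4 and Cish. The Socs4 promoter held none of the 3 motifs. Among 32851 promoters of 300 bases, 8.3% held TTCNNNGAA, 6.95% the spacing of 4 and 3.44% the GAAA pair. Among the 300 bases in the middle of each CRE, 9 of 31 SOCS CREs held a STAT motif of either spacing, against 17.6% of all 59190 CREs. These matches describe letters and do not show binding.

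After LPS, acetylation rose over the Socs1, Socs3 and Cish loci and did not change by the test at Socs2. A CRE was called when limma's moderated F-test on log2(value + 5), adjusted over all tested CREs by Benjamini-Hochberg, gave an adjusted p under 0.01 and the log2 difference from UT passed 1 at some time. Of 30 SOCS CREs tested, 18 rose, 2 fell and 10 were not called. The 18 were all 9 at Socs3, 5 of 8 at Cish, all 3 at Socs1 and the promoter CRE of Socs7. Over all 50697 tested CREs 53.5% were called, 29% at a higher and 24.6% at a lower level, so the calls of the SOCS loci lay more on the higher side than the table as a whole, which is a description and was not tested. The median log2 difference over the SOCS CREs was 0.63 at 30 min, 0.88 at 1 h, 1.70 at 2 h and 1.42 at 4 h, beside 0.05, 0.09, 0.02 and 0.08 over all CREs. The log2 scale holds the pseudocount of 5 and so understates changes of weak CREs. The Socs7 CRE 4.4 kb upstream, with 2 to 10 in the DMSO libraries, did not pass the filter of a mean of at least 10.

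After IL-4, Socs1, Socs2 and Cish gained acetylation. By the calls, Socs3 gained it for a short time at the promoter CRE and upstream, and lost it downstream by 4 h. Of the 30 CREs tested 11 rose, 3 fell and 16 were not called, against 24.7% called of all 47018 tested, 13.6% higher and 11% lower. The 11 were 4 at Cish, all 3 at Socs1, the Socs2 CRE and 3 at Socs3. None of the CREs of Socs4, Socs5, Socs6 and Socs7 was called after IL-4. The medians over the SOCS CREs were 0.70, 0.36, 0.26 and 0.19 from 30 min to 4 h. Both courses share the 2 UT libraries. In all, 10 CREs rose in both courses, 3 rose after LPS and fell after IL-4, 5 rose after LPS alone, 1 rose after IL-4 alone, 2 fell after LPS alone and 9 were called in neither, where alone means that the other course gave no call. The shares of these classes over all CREs are not given here, so the counts do not show whether the SOCS CREs differ from the table.

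The direct test of LPS against IL-4 at matched times called 18 of the 30 CREs, 11 higher and 7 lower after LPS, against 58.4% of all 50587 tested, 29.2% higher and 29.2% lower. All 9 Socs3 CREs were higher after LPS, and so were the CREs Cish-17.1kb (1.21) and Socs4-17.7kb (1.25). All 3 Socs1 CREs, the Socs2 CRE, Cish+10.6kb, Socs5-14.1kb (-2.11) and Socs6-16.4kb (-1.42) were lower at their largest difference. The call of Socs4-17.7kb was lost without 1 of the libraries of 2 h (0.96 without IL-4 replicate 1, 0.98 without LPS replicate 1).

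**Figure D1:**
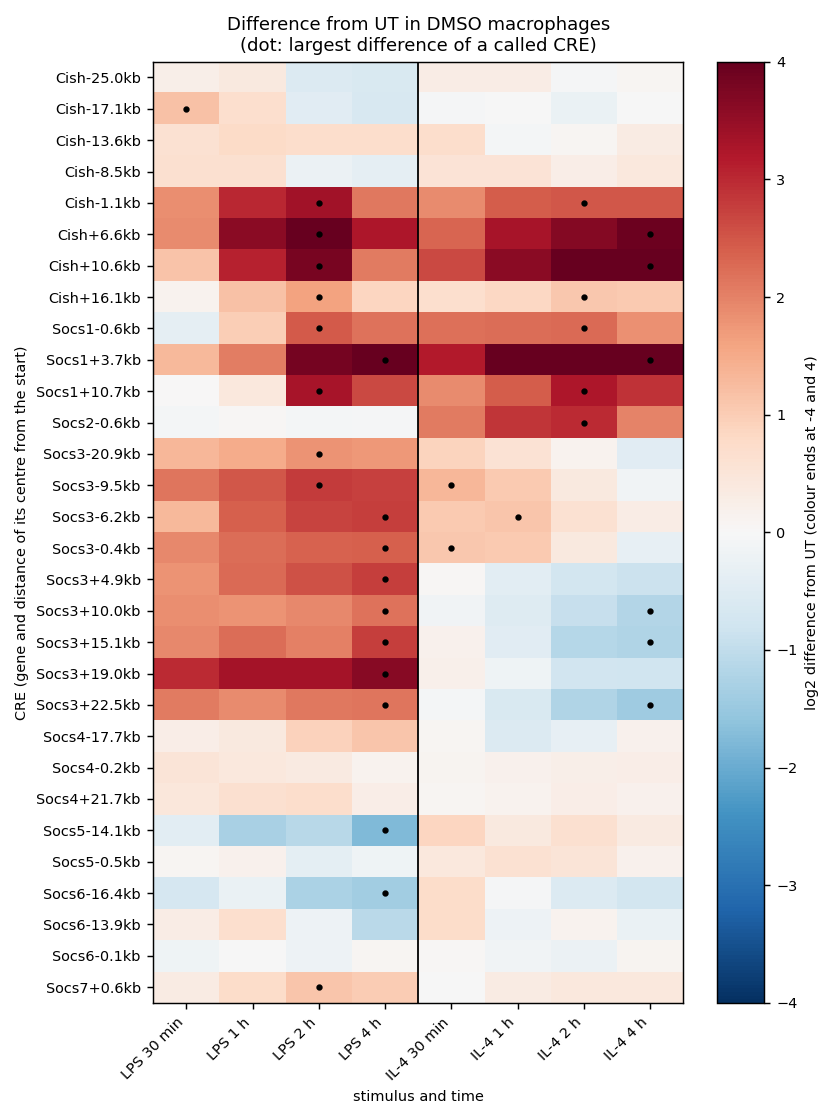
Log2 difference from UT in DMSO cells for the SOCS family CREs (rows, grouped by gene and ordered by position) at each time after LPS or IL-4 (columns), from the limma fit on log2(value + 5), with a dot at the largest difference of each called CRE and colours ending at -4 and 4. The Socs3 rows rise in every LPS column, by up to 3.65, while the Socs2 row rises in the IL-4 columns, by up to 2.99, and stays between -0.09 and 0.06 after LPS.

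Socs1, which encodes a direct JAK blocker, responded to both stimuli at different speeds. Its promoter CRE (chr16:10784309-10788001) held 251 and 274 in the UT libraries. After LPS it held 193 and 210 at 30 min, 511 and 542 at 1 h, 1501 and 1418 at 2 h and 1103 and 1286 at 4 h. After IL-4 it already held 1160 and 1277 at 30 min, then 1264 and 1217, 1348 and 1191, and 917 and 968. The LPS libraries of 30 min were thus below both UT libraries, while those of IL-4 at the same time were more than 4-fold above them (4.64-fold for the means). The log2 differences after LPS were -0.37, 0.99, 2.45 and 2.16 (SE 0.11, adjusted p = 2.552e-22) and after IL-4 2.19, 2.22, 2.25 and 1.83 (SE 0.08, adjusted p = 6.353e-29). The stimuli differed by -2.57 at 30 min and by -1.23 at 1 h (LPS minus IL-4), and by 0.20 and 0.34 at 2 h and 4 h, so that most of the difference lay in the first hour. Ordered by level, the IL-4 libraries of 30 min, 1 h and 2 h overlapped one another and the LPS libraries of 4 h.

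The CRE 3.7 kb downstream of the Socs1 start (chr16:10779616-10784035) was nearly unmarked at rest, with 12 and 8 in UT. It rose step by step after LPS, to 36 and 28, 57 and 55, 221 and 195, and 373 and 288, and more steeply after IL-4, to 128 and 129, 315 and 350, 550 and 577, and 723 and 633. No library of any stimulated group overlapped UT. The log2 difference reached 4.49 ± 0.24 (SE) after LPS and 5.52 ± 0.14 after IL-4, both at 4 h, and the stimuli differed most at 1 h, by -2.47. The CRE 10.7 kb downstream held 10 and 4 in UT, 5 and 9, 12 and 9, 110 and 106, 79 and 58 after LPS, and 34 and 42, 65 and 51, 105 and 104, 74 and 88 after IL-4. After LPS it was thus still at 12 and 9 at 1 h, when the promoter CRE had already risen above UT, and after IL-4 it was above UT by 30 min.

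Socs2, whose product binds cytokine and growth hormone receptors, responded to IL-4. Its only CRE (chr10:95416050-95418860), over the start and an exon of the non-coding 5730420D15Rik, held 37 and 31 in UT. After IL-4 it held 163 and 153, 290 and 263, 304 and 304, and 138 and 158, and every IL-4 library was above both UT libraries. After LPS it stayed at 28 and 36, 48 and 26, 24 and 41, and 30 and 35, a range that overlapped UT at each time. The log2 differences after IL-4 were 2.07, 2.85, 2.99 and 1.97 (SE 0.15, adjusted p = 4.531e-22) and after LPS -0.08, 0.06, -0.09 and -0.06 (SE 0.32, adjusted p = 0.989). LPS and IL-4 differed by -3.08 ± 0.24 at 2 h (adjusted p = 1.622e-20). Among the SOCS CREs it was the only one called after IL-4 as higher and not called after LPS.

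**Figure D2:**
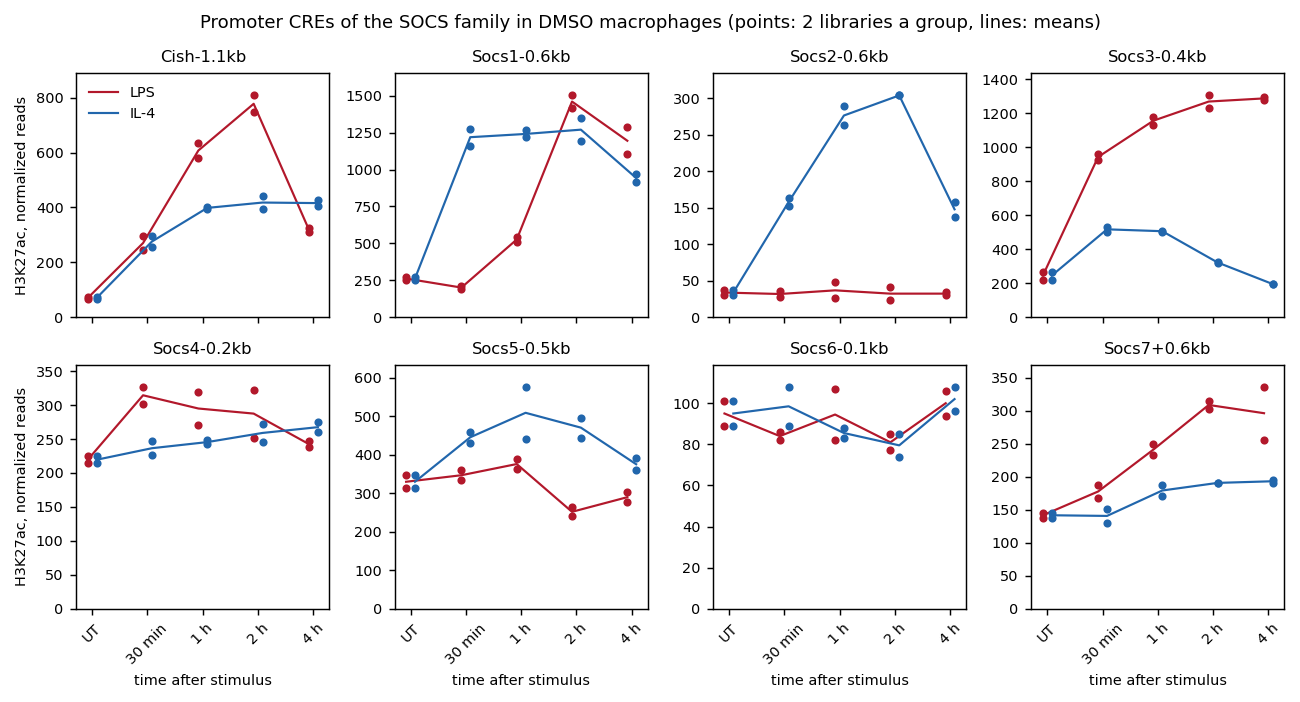
Normalized H3K27ac read counts of the promoter CREs in DMSO cells at UT, 30 min, 1 h, 2 h and 4 h (x axis), with LPS and IL-4 in separate colours, a point for each of the 2 replicate libraries and a line through their means. At Socs1 the IL-4 points reach 1160 and 1277 at 30 min while the LPS points are at 193 and 210, and at Socs2 the LPS points stay between 24 and 48.

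Socs3, the inhibitor of gp130 and related receptors, sits in an acetylated domain of 9 CREs, and all 9 rose after LPS. Its promoter CRE (chr11:117967498-117972011) held 269 and 222 in UT, 960 and 928 at 30 min of LPS, then 1134 and 1181, 1306 and 1234, and 1298 and 1279. The gain was thus largely present at 30 min, when the Socs1 promoter CRE had none, and the 2 h and 4 h libraries overlapped. The log2 differences were 1.93, 2.22, 2.35 and 2.38 (SE 0.10, adjusted p = 2.544e-21). The CREs 20.9 and 9.5 kb upstream lie nearer to the start of another gene, Pgs1, than to that of Socs3. Over the 9 CREs the largest log2 difference after LPS ran from 1.80 to 3.65. The largest was at the CRE 19.0 kb downstream, which held 99 and 72 in UT, 691 and 720, 872 and 932, 892 and 880, and 1146 and 1096 (3.65 ± 0.12 at 4 h, adjusted p = 1.019e-23).

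After IL-4 the Socs3 locus split by side and by time, with early gains upstream and at the promoter CRE and later losses downstream. At 30 min the downstream CREs stood at 0.92- to 1.15-fold of UT (means). At the promoter CRE the values were 533 and 503, 511 and 503, 325 and 321, and 194 and 197, which is above UT at 30 min and 1 h and below both UT libraries at 4 h. The log2 differences were 1.07, 1.04, 0.40 and -0.31 (SE 0.11, adjusted p = 2.584e-16). The largest of these lay close to the threshold of 1, and its call was lost when UT replicate 2 was left out (0.93) or the libraries were scaled to the same total (0.96). The CREs 9.5 and 6.2 kb upstream also rose, by 1.33 at 30 min and 1.11 at 1 h. The CRE 20.9 kb upstream was at 1.86-fold of UT at 30 min and 0.73-fold at 4 h (means), and was not called. The upstream CRE at -9.5 kb held 248 and 237 in UT, 616 and 614 at 30 min of IL-4 and 238 and 201 at 4 h, so that it overlapped the UT range by then. In contrast, the CREs 10.0, 15.1 and 22.5 kb downstream were called as lower at 4 h of IL-4, by -1.17 ± 0.13, -1.22 ± 0.30 and -1.41 ± 0.20. The CRE at 22.5 kb held 163 and 167 in UT and fell to 49 and 71, while at 4 h of LPS it held 727 and 775. At 15.1 kb the values were low, 39 and 49 in UT against 15 and 17, and a pseudocount of 20 took its call away (-0.83). These 3 CREs rose after LPS and fell after IL-4. The CREs 4.9 and 19.0 kb downstream went from 303 and 302 to 145 and 184, and from 99 and 72 to 39 and 55, at 4 h of IL-4 and were not called. The difference between the stimuli was largest at 19.0 kb, 4.45 at 4 h, and it was 2.69 at the promoter CRE.

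**Figure D3:**
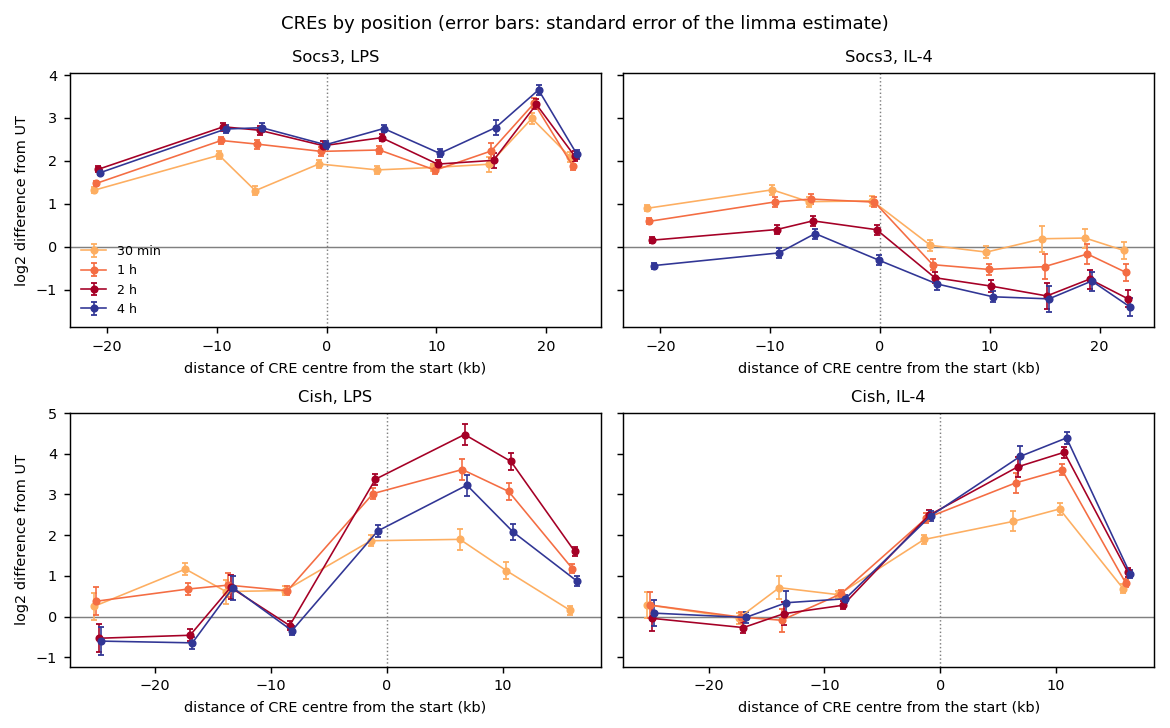
Log2 difference from UT in DMSO cells (y axis) against the distance of each CRE's centre from the start of its gene in kb (x axis, negative upstream) at Socs3 and Cish, with LPS on the left, IL-4 on the right, a colour for each time and error bars of 1 standard error. At Socs3 the LPS values lie above 0 on both sides of the start, while the IL-4 values at 4 h fall to -1.41 downstream.

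Cish, which encodes CIS, a receptor-binding inhibitor and a textbook STAT5 target, rose after both stimuli. Its promoter CRE (chr9:107293642-107297568) held 68 and 73 in UT. After LPS it held 244 and 297, 633 and 582, 747 and 808, and 327 and 311, a rise that peaked at 2 h and had partly gone by 4 h. After IL-4 it held 296 and 256, 402 and 395, 395 and 441, and 428 and 404, a rise that stayed level from 1 h on, with overlapping libraries. The log2 differences were 1.86, 3.02, 3.37 and 2.10 after LPS (SE 0.14, adjusted p = 1.207e-20) and 1.89, 2.42, 2.49 and 2.48 after IL-4 (SE 0.12, adjusted p = 4.754e-24). At 30 min the libraries of the stimuli overlapped. The largest difference between them, 0.89 at 2 h, did not pass the threshold of 1.

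The 3 Cish elements downstream of the gene also rose after both stimuli, with courses that differed from the promoter's. The CRE 10.6 kb downstream (chr9:107305487-107308932) held 27 and 21 in UT, 46 and 73, 242 and 234, 394 and 405, and 121 and 112 after LPS, and 159 and 193, 322 and 373, 499 and 439, and 622 and 577 after IL-4. Its IL-4 libraries were above its LPS libraries at each time. LPS peaked at 2 h (3.81) and IL-4 at 4 h (4.39 ± 0.14, adjusted p = 1.822e-30), and at 4 h they differed by -2.32 (LPS minus IL-4), which was called. The CRE 6.6 kb downstream held 4 and 5 in UT and reached 227 and 186 at 2 h of LPS (4.47 ± 0.26) and 130 and 151 at 4 h of IL-4 (3.94). At 16.1 kb downstream the base was higher, 275 and 304, and the gains smaller, 1.60 after LPS and 1.09 after IL-4. The 4 CREs further upstream lie in introns of Mapkapk3, which encodes a kinase activated by p38, and their nearest start is that of Mapkapk3. Of these, the CRE at -17.1 kb rose early and briefly after LPS, from 261 and 214 to 533 and 541 at 30 min (1.17), held 167 and 174 at 2 h, and held 192 to 258 after IL-4.

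The other 4 genes, whose products are better known for acting on growth factor and insulin receptor signals, moved little at their promoters. The Socs4 promoter CRE held 214 and 225 in UT and at most 302 and 327, at 30 min of LPS (log2 0.51, adjusted p = 0.01238, not called). Its centre lies in an exon of Wdhd1, 160 bp from the start of that gene. The Socs5 promoter CRE held 313 and 346 in UT, 240 and 263 at 2 h of LPS and 576 and 441 at 1 h of IL-4 (log2 -0.38 and 0.61, neither called). The Socs6 promoter CRE held 89 and 101 in UT and 77 to 107 through the LPS course (largest log2 difference -0.22, adjusted p = 0.647). The Socs7 promoter CRE was the exception, with 145 and 138 in UT and 303 and 314 at 2 h of LPS (1.10 ± 0.16, adjusted p = 1.369e-07), close to the threshold of 1 and below it with libraries scaled to the same total (0.99). Both CREs that fell after LPS were distal: the Socs5 CRE 14.1 kb upstream went from 50 and 54 to 17 and 8 at 4 h (-1.75 ± 0.33), and the Socs6 CRE 16.4 kb upstream from 71 and 74 to 22 and 28 (-1.38 ± 0.28). The Socs6 CRE 13.9 kb upstream had a largest difference of -1.06 after LPS and was not called (adjusted p = 0.01044).

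Other JAK-STAT genes were counted by the same 25 kb rule, on a list of 35 genes with 194 CREs. After LPS 66 CREs rose and 37 fell of 188 tested, that is 54.8% called, close to the 53.5% of all CREs. By role, 17 rose and 16 fell of 74 at receptor genes, 13 rose and 0 fell of 21 at kinase genes, 13 rose and 8 fell of 35 at STAT and Irf9 genes, and 23 rose and 13 fell of 58 at other inhibitor genes. All 6 tested CREs of Jak2 rose, with a log2 difference of 2.73 ± 0.09 at the CRE nearest its start. All 5 CREs tested at Usp18, a brake on interferon receptors, rose (2.60 ± 0.12), as did all 4 tested at Stat5a (2.42 ± 0.11). The nearest CREs of Stat6 and of the adaptor gene Sh2b3 fell, by -1.28 and -1.68. After IL-4 14 rose and 7 fell of 181 tested (11.6%, against 24.7% of all CREs), among them 4 of 5 tested at Jak2, with 1.22 ± 0.10 at its nearest CRE. In the direct comparison 63 were higher and 40 lower after LPS of 186 (55.4%).

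Over the 9 DMSO group means, promoter CREs of other genes were ranked by Pearson's r with each SOCS promoter CRE among 5039 candidates. The courses share cells, scaling and UT libraries, so r is a description. Nearest to Socs1 were Map3k8 (r = 0.97), Tarm1 (0.95) and Insl6 (0.94). Nearest to Socs2 were Smg5, Zfp87 and Zfp623 (0.99, 0.99 and 0.98), and nearest to Socs3 were Bcl2a1b, Tnfaip3 and Il1rn (each 0.98). The Cish promoter CRE had no neighbour as near, with F2r at 0.93, Tcof1 at 0.92 and St7 at 0.92. Within the family r was 0.59 for Socs1 with Cish, 0.05 for Socs1 with Socs3, and -0.58 for Socs2 with Socs3.

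At the promoter CREs of Socs1, Socs2, Socs3 and Cish, the rises seen in DMSO cells had the same direction under nearly every CKI. A value above the UT value of the same CKI gives the direction only, and not how much of the rise was kept. At 30 min of IL-4 the Socs1 promoter CRE ran from 621 (Lenvatinib) to 1440 (GSK461364) over 58 CKIs, with a median of 1030 and a DMSO mean of 1218, and it was above the UT value of the same CKI in 58 of 58. At 30 min of LPS it ran from 118 to 417 (median 211.5) and was above UT in 7 of 58, and at 2 h it ran from 500 to 1676 (median 1038) and was above UT in 55 of 55. The Socs2 CRE at 2 h of IL-4 ran from 114 (Filgotinib) to 441 (median 284.5) and was above UT in 56 of 56. The Socs3 promoter CRE at 1 h of LPS ran from 604 (Bafetinib) to 1486 (GSK461364), with a median of 953, and was above UT in 57 of 57. The Cish promoter CRE was above UT in each CKI at all 4 times after either stimulus. At 4 h of IL-4 the Socs3 promoter CRE was above UT in 21 of 55 CKIs, with a median of 292 against a UT median of 333.

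**Figure D4:**
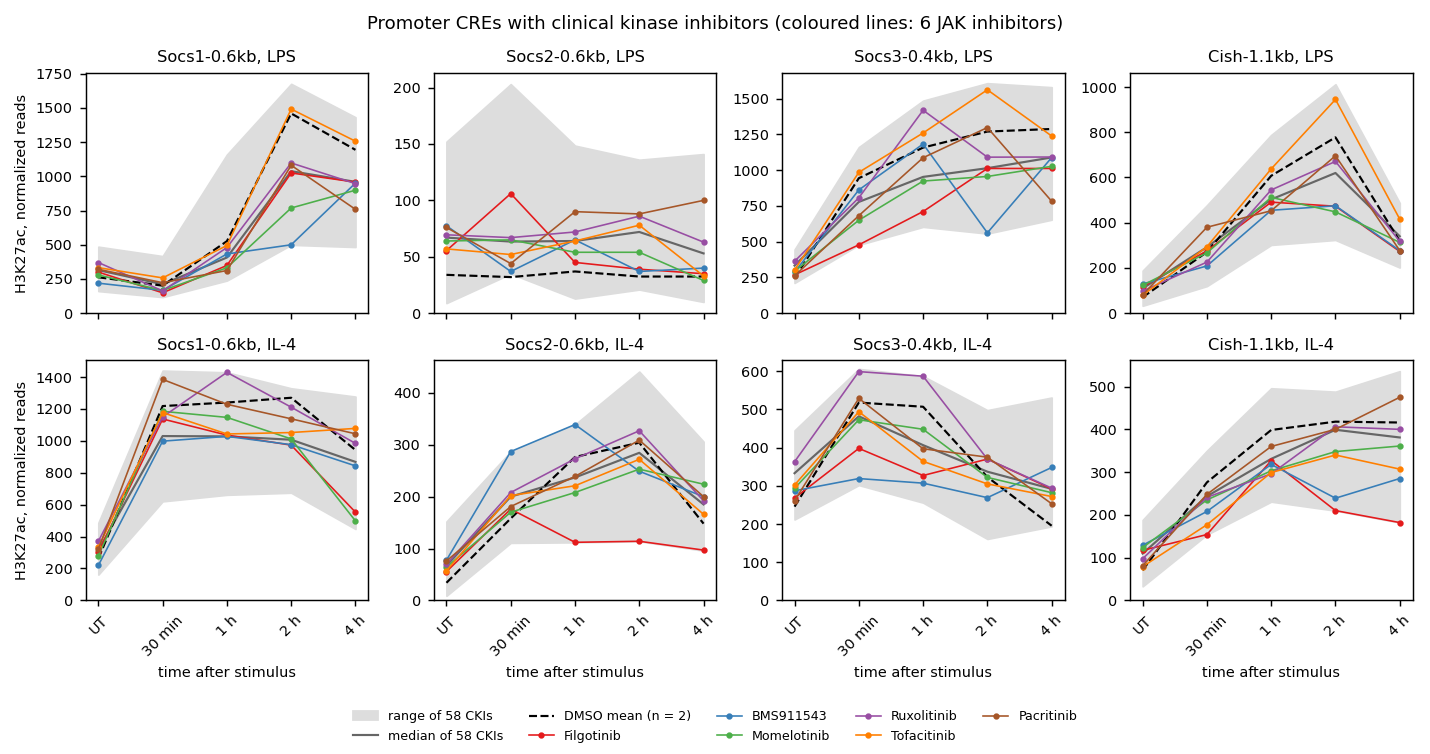
Normalized H3K27ac read counts of the promoter CREs of Socs1, Socs2, Socs3 and Cish in CKI-treated cells (y axis) by stimulus and time (x axis). The grey band is the range and the grey line the median of the CKIs, the dashed line is the mean of the 2 DMSO libraries, and the coloured lines are the 6 JAK inhibitors. Filgotinib holds the lowest Socs2 values at 1 h and 2 h of IL-4, 112 and 114.

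Against DMSO, averaged over the times of a course and UT, pairs of a CRE and a CKI were called at an adjusted p under 0.05 and a log2 difference over 0.5. Here and in the comparison among CKIs below, the times of a CKI stood in for replicates. The spread came from all compounds, so these p-values do not measure the spread between separate cultures of a CKI. After LPS 469 of 1798 SOCS pairs (26.1%) were called, 266 higher and 203 lower, against 36.4% of all pairs, 32.3% higher and 4.04% lower. After IL-4 361 were called (20.1%), 322 higher and 39 lower, against 39.2%, 36.2% and 3.03%. Socs3 gave 142 of the lower calls after LPS and no higher one among its 522 pairs, with a median log2 difference of -0.33, whereas the median over all CREs was above 0 in 58 of 58 CKIs (0.18 to 0.73). The direction at Socs3 turned with the processing. With the libraries quantile-normalized, which takes the median over all pairs from 0.39 to 0.0012, 67 pairs were lower and 0 higher. With library contrast as a covariate, an alternative chosen after seeing the data, 28 were higher and 2 lower, with a median of 0.16. The lower contrast of the CKI libraries moved with this result, and its part was not tested.

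Each CKI was therefore also compared with the other CKIs of its run, that is, of the same block of CKIs in the column order of the table, a technical grouping. After LPS 17 of 1798 pairs (0.945%) were called, 3 higher and 14 lower, against 1.1% of all pairs, 0.709% higher and 0.391% lower. After IL-4 8 were called (0.445%), 5 higher and 3 lower, against 1.21%, 0.828% and 0.379%. Counted in both directions together, the SOCS loci thus gave no larger share of calls than the table as a whole. The lower calls after LPS were 0.779% of the SOCS pairs against 0.391% of all pairs. Of these 14 lower calls 11 came from 1 compound, PH797804, described next.

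PH797804, an inhibitor of p38, held 14 of the 17 pairs after LPS. All 9 Socs3 CREs were lower than in its run, by -0.56 ± 0.13 at the promoter CRE and by -1.13 ± 0.16 at 19.0 kb downstream, and so were the promoter CREs of Socs1 (-0.59 ± 0.15, adjusted p = 0.0007553) and Cish (-0.56 ± 0.18, adjusted p = 0.006396). It was higher at 3 distal CREs, Socs4-17.7kb (1.00 ± 0.28), Socs6-16.4kb (0.86 ± 0.25) and Socs6-13.9kb (1.23 ± 0.32). After IL-4 it held 4 of the 8 pairs, all higher, at Cish-25.0kb (0.56), Socs4-17.7kb (1.06), Socs6-13.9kb (0.97) and Socs7-4.4kb (1.19). This compound stood apart in the whole table, with 42.2% of all CREs called after LPS and 40.3% after IL-4, and its libraries had a median contrast of 10.3 against 17.14 to 39.6 in the other 9 CKIs of its run. With contrast as a covariate the share called after LPS was 7.07%, the promoter differences were -0.05 at Socs3, -0.12 at Socs1 and -0.36 at Cish, none called, and 4 distal Socs3 CREs stayed lower, by -0.56 to -0.64. Mubritinib, an ERBB2 inhibitor, was lower at the Socs3 CREs 6.2 kb upstream (-0.63 ± 0.16) and 15.1 kb downstream (-0.73 ± 0.20), and both were also called with contrast as a covariate. Omipalisib, a PI3K and mTOR inhibitor, was lower at the Cish CRE 13.6 kb upstream (-0.78 ± 0.23) after LPS, and at the Cish CRE 17.1 kb upstream (-0.55) and the Socs6 promoter CRE (-0.62) after IL-4, and it had the lowest median contrast of all compounds, 8.2. X396, an ALK inhibitor, was higher at the Socs6 CRE 16.4 kb upstream after IL-4 (0.78 ± 0.20). Of all CREs, 1.2% were called for Mubritinib after LPS and 0.977% for X396 after IL-4. For Omipalisib the shares were 4.02% after LPS and 4.69% after IL-4. The SOCS calls of these compounds were not tested against these shares, so they do not show an effect particular to the SOCS loci.

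For the promoter CREs, the CKIs farthest from their run were PH797804 and OSI930 on the low side (-0.59 and -0.48) and Talmapimod and TG100115 on the high side (0.43 and 0.36) for Socs1 after LPS. For Socs3 after LPS they were PH797804 and Pacritinib (-0.56 and -0.30) against Talmapimod and GSK461364 (0.32 and 0.21), and for Cish PH797804 and AMG208 (-0.56 and -0.38) against Talmapimod and Omipalisib (0.38 and 0.27). Of these only the PH797804 values were called. For Socs2 after LPS the values ran from -0.48 (Lapatinib) and -0.37 (Midostaurin) to 0.55 (PH797804) and 0.58 (Omipalisib), none called. After IL-4, Socs1 ran from -0.24 (PH797804) and -0.23 (X396) to 0.16 (VX702) and 0.17 (AZD2014), and Socs3 from -0.29 (X396) and -0.20 (BMS911543) to 0.27 (AZD2014) and 0.32 (Mubritinib), none called. Cish ran from -0.46 (PH797804) and -0.33 (Tofacitinib) to 0.38 (Talmapimod) and 0.43 (Omipalisib), with none past both thresholds. At Socs2 after IL-4 the ends were -0.74 (Filgotinib) and -0.47 (PF04691502), and 0.26 (BMS911543) and 0.27 (MK2461), and Filgotinib alone was called.

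JAK inhibitors act on the kinases that pass the IL-4 signal to STAT6. The 6 developed against JAK kinases were Filgotinib, BMS911543, Momelotinib, Ruxolitinib, Tofacitinib and Pacritinib, and because each was used at its own concentration they are set side by side without a test between them. Filgotinib was the one with a call against its run in the fit over its UT and stimulated libraries. At the Socs2 CRE it held 37 and 74 in its UT libraries and 176, 112, 114 and 97 at 30 min, 1 h, 2 h and 4 h of IL-4. The values at 1 h and 2 h were the lowest of all CKIs at those times. The difference from its run was -0.74 ± 0.15 (adjusted p = 0.0014) in a compound with 1.27% of all CREs called, and -0.84 ± 0.15 (adjusted p = 7.572e-05) in the stimulated libraries alone. It was -0.74 (adjusted p = 0.001404) with contrast as a covariate. Filgotinib had 1 library for each time of IL-4, and its p-values do not measure the spread between separate Filgotinib cultures.

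In the other JAK inhibitors the Socs2 CRE rose to higher values after IL-4. BMS911543 held 287, 339, 249 and 200, Momelotinib 170, 208, 253 and 224, and Ruxolitinib 208, 273, 327 and 192. Tofacitinib held 202, 221, 272 and 166, and Pacritinib 181, 239, 309 and 200. All of these were above the UT values of the same compound, which ran from 48 to 83. At the Cish promoter CRE Filgotinib held 154, 327, 210 and 182 after IL-4, the lowest of all CKIs at 30 min, 2 h and 4 h, against 128 and 106 in UT. BMS911543 held 208, 318, 239 and 285 there, Tofacitinib 177, 299, 340 and 307, and Momelotinib 235, 303, 348 and 361. Ruxolitinib held 241, 296, 406 and 400, and Pacritinib 248, 360, 400 and 475.

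Ranks over the promoter CREs of Socs1, Socs2, Socs3 and Cish and the CREs Socs1+3.7kb and Cish+10.6kb describe the same pattern. They reuse the same libraries, with the Socs2 and Cish values above among them, and so add no separate evidence. Such ranks were counted for the JAK inhibitors alone, and not over all CREs. Filgotinib had the lowest value of all CKIs in 8 of 24 combinations of CRE and time after IL-4, and was among the 5 lowest in 11. After LPS it was lowest in 1 of 24 and among the 5 lowest in 6. BMS911543 was among the 5 lowest in 4 of 24 after IL-4 and in 5 of 24 after LPS, where its Socs1 promoter CRE at 2 h held 500, the lowest of 55 CKIs. Ruxolitinib was among the 5 lowest in 0 of 24 after either stimulus. In the stimulated libraries alone Filgotinib was also lower than its run at Socs1+3.7kb (-0.55, adjusted p = 0.04956) and Cish+6.6kb (-0.71, adjusted p = 0.04624), both just past the threshold, and not at the Socs1 promoter CRE (-0.03, adjusted p = 0.94). The share of all CREs called for Filgotinib in this fit of stimulated libraries is not given here, so these calls cannot be set against it. With the same libraries Pacritinib was called after LPS as lower at Socs3+10.0kb (-0.53 ± 0.14) and Socs3+22.5kb (-0.61 ± 0.15) and as higher at Socs6-16.4kb (0.89 ± 0.30), in a compound with 22% of all CREs called, against 0% over its UT and stimulated libraries with contrast as a covariate. The Filgotinib libraries had a median contrast of 15.26, close to 15.36 for BMS911543, against 19.16 for Momelotinib, 22 for Pacritinib, 33.14 for Ruxolitinib and 35.36 for Tofacitinib.

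As a class the JAK inhibitors did not differ from the other 52 CKIs at any SOCS CRE once p-values were adjusted over all 59167 CREs. Those 52 were not free of JAK-directed compounds. In the paper, TG100572 was used at a concentration chosen for the JAK family kinase TYK2, and Apitolisib was used to target JAK1. The test used 1 value for each CKI, with the run as a covariate in limma. It called 0 of 31 SOCS CREs for the level after LPS, the level after IL-4, the UT level and the gain from UT to LPS or to IL-4. Over all CREs it called 0.00507% for the IL-4 level, which is 3 CREs, and 0% for each of the other 4. At an unadjusted p under 0.05 there were 1, 3, 1, 0 and 1 SOCS CREs in that order, and 3.46%, 4.96%, 0.98%, 1.86% and 1.36% of all CREs. The estimate was below 0 for 22 of 31 SOCS CREs at the IL-4 level, beside 53% of all CREs, and for 22 at the LPS level, beside 42.8%. It was also below 0 for 22 at the UT level, without any stimulus, beside 62.5%, and for 13 of the gains to LPS (beside 34.6%) and 14 of the gains to IL-4 (beside 40.8%).

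The largest departures were at Cish after IL-4. The promoter CRE was lower by -0.20 ± 0.06 (95% interval -0.32 to -0.07, adjusted p = 0.62), with 5 of 6 compounds below their run, and Cish+16.1kb by -0.19 ± 0.06 (adjusted p = 0.49), with 6 of 6 below. At Socs2 the difference was -0.12, with an interval from -0.27 to 0.03, and Filgotinib alone stood at -0.84 while BMS911543, of the same run, stood at 0.37. At the Socs1 promoter CRE it was -0.01 (-0.12 to 0.10) and at the Socs3 promoter CRE -0.05 (-0.17 to 0.06). After LPS the differences were -0.17 (-0.36 to 0.01) at Socs1, -0.05 (-0.21 to 0.11) at Socs3 and 0.01 (-0.14 to 0.16) at Cish. At these promoter CREs the intervals leave out a lowering of the class average by 0.5 on the log2 scale, and they do not show that the compounds act alike.

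**Figure D5:**
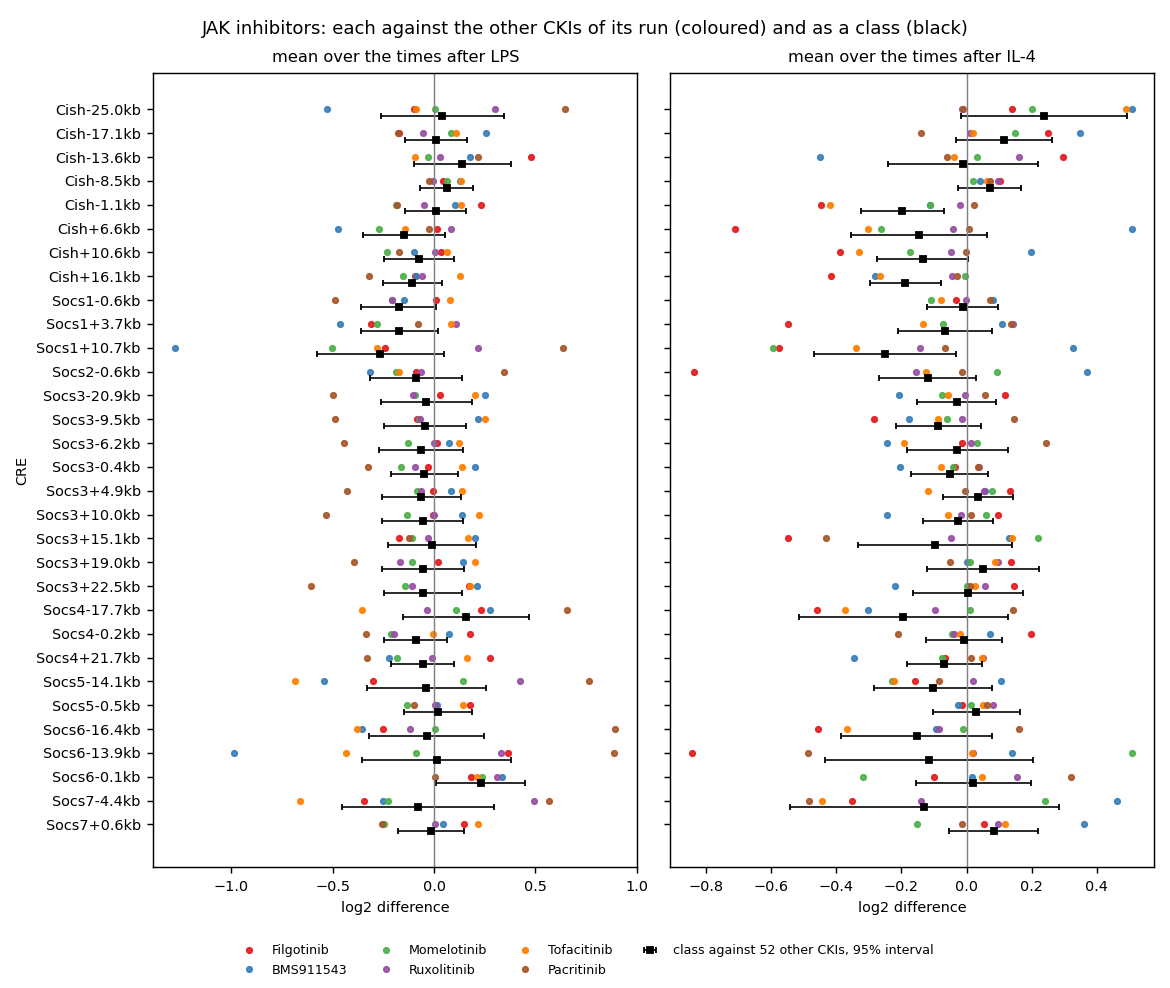
Difference of the JAK inhibitors from the other CKIs, in log2(value + 5) with the run as a covariate, for the 31 SOCS CREs (rows) as means over the times after LPS and after IL-4. Coloured points are the compounds, each against the other CKIs of its run, and black squares the class estimate with its 95% interval, and after IL-4 Filgotinib lies at -0.84 for Socs2 while the class estimate is -0.12.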

How the data were processed

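H3K27ac ChIP-seq libraries of BMDMs were analysed from the deposited table. Per the study's methods, the authors removed adapters, trimmed reads to 51 bases, mapped them to mm10 with ShortStack (the labels' tool list names Bowtie and SAMtools), counted reads around ATAC-seq summits and scaled each library by peaks that did not vary. The deposited values are the authors' normalized read counts rounded to whole numbers and were treated as a score, so no count model was used. How the variable CRE widths were formed, and read depth before scaling, are not given in the sources used here.

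Groups came from the treatment labels, and replicate numbers from the DMSO titles. Libraries whose title ends in b repeat a CKI and time and were kept as samples of their own. Fits used limma 3.58.1 (R 4.3.3) on log2(value + 5) with a mean-variance trend, CREs with a mean of at least 10 and Benjamini-Hochberg adjustment over all of them: 18 DMSO libraries for the courses, time and compound as factors for the CKIs, and 1 value for each of 58 CKIs with run as a covariate for the JAK class. The spread of a CKI with 1 library per time was thus taken from all compounds. Alternatives were other pseudocounts, filters, scalings, covariates, a replicate block and left-out libraries. For each gene the text names the promoter CRE and up to 3 further called CREs with the largest differences, the JAK inhibitors, and the 2 highest and 2 lowest CKIs at 4 promoter CREs; further CREs and compounds were named after their values were seen. The fits were also tried on simulated data with independent noise. That noise held no shared deviation of a compound or of library contrast, so the simulations do not bear on these features of the CKI comparisons. The members and lists were chosen with earlier results of these data known. Promoter sequences were credited to RefSeq and CRE centres read from mm10.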

Additional observations from a re-analysis of the deposited data

Results flagged for a closer look

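At 3 Socs3 CREs both libraries of 4 h moved up after LPS and down after IL-4, and the direct test of the stimuli gave a difference (LPS minus IL-4, log2) of 3.34 at the CRE 10.0 kb downstream of the start, 3.99 at 15.1 kb and 3.56 at 22.5 kb. Both courses share the UT libraries. The loss at 15.1 kb rested on values of 39 and 49 in UT against 15 and 17.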

How the results depend on the processing

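In the DMSO courses the number of SOCS CREs called stayed within 1.5 times its reported value under all alternatives run, and no result changed sign while called. Leaving out 1 library at a time gave 20 to 21 after LPS, 14 to 16 after IL-4 and 17 to 19 between the stimuli. With the replicate number as a block (replicate block) 21, 14 and 18 were called; the added one was Socs6-13.9kb after LPS (-1.06), which was also called without LPS 4 h replicate 1 or without either UT library. Same-numbered DMSO libraries did not deviate together (r from -0.09 to 0.07 over 36 pairs, 0 above 0.1), so the numbers were not taken as pairs. Calls close to the threshold that were lost were Socs7+0.6kb after LPS with equal totals (0.99), Socs3-0.4kb after IL-4 with equal totals (0.96) or without UT replicate 2 (0.93), Socs3+15.1kb after IL-4 with a pseudocount of 20 (-0.83) and Socs4-17.7kb between the stimuli with a pseudocount of 20 (0.75). Socs3+19.0kb was called as lower after IL-4 without IL-4 4 h replicate 2 (-1.02) or UT replicate 2 (-1.02), and Socs3+4.9kb without IL-4 4 h replicate 2 (-1.04). The counts against DMSO moved most: from 469 pairs after LPS to 134 with quantile normalization and 82 with contrast as a covariate, and from 361 after IL-4 to 119 and 84. Against the run, 17 pairs after LPS became 11 with quantile normalization, 28 in stimulated libraries only and 9 with contrast as a covariate, and 8 after IL-4 became 17 in stimulated libraries only. The causes were not tested. The JAK class called 0 SOCS CREs under each alternative run, leave-one-out of each inhibitor included. With 1 library per CKI and time, a change in 1 library cannot be told apart from its scatter.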
